A study of Mus musculus with 18 samples.

Results

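The genes described here encode the machinery that holds, releases and cuts the sterol regulatory element binding proteins (SREBPs) in mouse liver: Srebf1, Srebf2, Scap, Insig1, Insig2, Mbtps1 and Mbtps2. They were chosen by name and are 7 of the 20105 genes in the deposited count table. All 7 were found there once, and all 7 passed the filter on low counts in every comparison. The study measured nuclear RNA of liver from female HEP-INTACT mice, whose hepatocyte nuclei bear a tag by which an immunoprecipitation (IP) can isolate them. The sources used here did not name the transgene driver, the strain or the age. Of 6 mice, 3 were fed freely and 3 were fasted for 16 h from zeitgeber time 12, the onset of the active phase, and both sets were killed at the same clock time. Each mouse gave 3 libraries: IP nuclei from fresh tissue, the supernatant of that same pull-down, and IP nuclei from frozen tissue. This makes 6 groups of 3 libraries. In the titles, a frozen fed library carries a serial number apart from the run of the others, and no label tells which column holds it.

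SREBPs are made as precursors in the membrane of the endoplasmic reticulum (ER). SCAP escorts a precursor in COPII-coated vesicles to the Golgi, where the site-1 and site-2 proteases cut it in turn and free the transcription factor domain. When sterols are plentiful, INSIG proteins bind SCAP and keep the complex in the ER, and they also link HMG-CoA reductase to its ubiquitin ligases. In liver, SREBP-1c is known as the insulin-responsive activator of fatty acid synthesis and SREBP-2 as the activator of cholesterol synthesis and uptake. The files measure RNA only, so precursor retention, cleavage and protein levels were not measured.

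Total counts ran from 13828945 to 54434263 per library. The smallest count of any of the 7 genes in a library was 304, and counting error was at most 5.74% of a count. Levels are CPM, the count relative to a library size scaled over all 18 libraries. Libraries of a group carry the letters A, B and C, and the same letter within a feeding state was taken to stand for the same mouse (fed A and fasted A are different mice). The labelled tissue was checked with markers: summed over 10 hepatocyte genes, IP libraries held 13804 to 26922 CPM and supernatant libraries 534 to 1404. Summed over 8 Kupffer cell and macrophage genes, fresh IP held 7.39 to 15.7 CPM, frozen IP 25.5 to 92.1 and supernatant 3205 to 6715. The sums were 31.8 to 239 CPM in IP and 2329 to 3759 in supernatant for 8 endothelial genes, 50.9 to 128 and 763 to 1249 for 8 stellate cell and fibroblast genes, and 4.34 to 53.4 and 1750 to 3091 for 8 lymphocyte genes. For 6 cholangiocyte genes they were 2.34 to 10.5 CPM in IP and 1.59 to 3.84 in supernatant. Krt19, Krt7 and Nkg7 were at 0 in at least 1 IP library, and every other marker had a count in all 18 libraries.

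The spans of the genes that changed most, and of their closest relatives, are given here with the bases before a start of each. On mm10, Insig1 (NM_153526) was counted over chr5:28071412-28078662 on the plus strand, a span of 7.251 kb, and Insig2 (NM_178082) over chr1:121304353-121332589 on the minus strand, a span of 28.24 kb. Srebf1 (NM_011480) was counted over chr11:60199089-60220604 on the minus strand (21.52 kb) and Srebf2 (NM_033218) over chr15:82147269-82204960 on the plus strand (57.69 kb). These spans run from transcript start to end, introns included, and no poly-A selection was made, so unspliced RNA is part of each level. The 250 bases upstream of a start of each gene (RefSeq, GRCm38.p6) are written 5′ to 3′ on the gene's own strand. For Srebf1 this is RefSeq start 2, at -23 bases relative to the start of the counted span. No GENCODE transcript of Srebf1 held the first bases after that start. Which start was in use was not tested. Capitals mark every match, on either strand, to the motifs named after them.
Insig1, chr5:28071162-28071411, plus strand: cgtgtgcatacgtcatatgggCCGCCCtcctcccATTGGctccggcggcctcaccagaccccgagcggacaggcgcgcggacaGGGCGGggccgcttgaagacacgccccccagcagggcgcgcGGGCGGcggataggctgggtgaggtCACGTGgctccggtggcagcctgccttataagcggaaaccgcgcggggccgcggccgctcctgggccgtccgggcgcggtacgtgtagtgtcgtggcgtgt
Insig2, chr1:121332590-121332839, minus strand: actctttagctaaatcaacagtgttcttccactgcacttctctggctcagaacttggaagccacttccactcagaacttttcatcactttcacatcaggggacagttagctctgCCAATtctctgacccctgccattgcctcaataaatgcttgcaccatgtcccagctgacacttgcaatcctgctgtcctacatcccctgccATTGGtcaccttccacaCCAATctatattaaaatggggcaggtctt
Srebf1, chr11:60220628-60220877, minus strand: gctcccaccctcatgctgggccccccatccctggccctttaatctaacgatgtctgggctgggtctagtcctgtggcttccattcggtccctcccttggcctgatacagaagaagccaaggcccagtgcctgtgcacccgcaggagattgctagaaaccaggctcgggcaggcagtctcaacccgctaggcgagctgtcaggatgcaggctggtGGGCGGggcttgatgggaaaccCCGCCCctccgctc
Srebf2, chr15:82147019-82147268, plus strand: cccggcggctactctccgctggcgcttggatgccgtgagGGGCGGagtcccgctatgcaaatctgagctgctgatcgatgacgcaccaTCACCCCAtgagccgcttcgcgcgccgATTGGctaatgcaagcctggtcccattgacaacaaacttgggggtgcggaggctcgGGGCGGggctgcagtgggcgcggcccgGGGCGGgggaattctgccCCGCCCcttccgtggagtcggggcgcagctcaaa

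The RefSeq table held 12 such windows for the 7 genes, with 3 starts for Srebf1, 3 for Insig2, 2 for Scap and 1 for each of the others. The motifs searched on both strands were the SRE core TCACNCCAC, a shorter form of it, TCACNCCA, the E-box CACGTG, the NF-Y box CCAAT, the GC box GGGCGG and the forkhead site GTAAACA. The short form was added after the sequences had been seen and overlaps every match to the long one. The long SRE core was in 0 of the 12 windows, against 1.05% of all 32851 windows, and the forkhead site likewise in 0, against 3.17%. The short form was in the Srebf2 window, from 162 to 155 bases before the start, and in 3.67% of all windows. Insig1 carried an E-box from 101 to 96 bases before its start, and Scap carried one before its second start, from 40 to 35 bases. E-boxes were in 6.02% of all windows. NF-Y boxes were in 5 of the 12 windows (33.8% of all) and GC boxes in 8 (32.7% of all). The Insig1 window had 34 CpG and 72.8% G and C, the highest of the 12. The Insig2 window at the start of the counted span had 0 CpG, as did 7.87% of all windows, and 47.2% G and C, near the median of 52.4% over all windows. It held 3 NF-Y boxes, at -136 to -132, -46 to -42 and -29 to -25. The other Insig2 starts lay 4565 and 4911 bases inside the counted span and had 16 and 23 CpG. The Srebf1 windows differed as well: start 2, printed above, had 63.2% G and C and 9 CpG, and start 3 had 70.8% and 30. The Srebf2 window had 67.6% and 25. A motif match is a description of letters, not a binding site.

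The level of Srebf1, which encodes both SREBP-1a and SREBP-1c from alternative starts, fell by about an order of magnitude in hepatocyte nuclei of fasted mice. In fresh IP, Srebf1 was at 313, 512 and 264 CPM in fed libraries A, B and C and at 38.2, 44.1 and 26.0 CPM in fasted libraries A, B and C. Every fed library lay far above every fasted one. The log2 change was -3.31 (SE 0.37, n = 3 per group, adjusted p = 0.00099, edgeR's quasi-likelihood test), which is 9.90-fold lower. In frozen IP of the same mice Srebf1 was at 278, 329 and 278 CPM fed and at 38.4, 38.3 and 28.6 CPM fasted, and the log2 change was -3.07 (SE 0.16, adjusted p = 0.000189). Fed library B was the highest in both preparations, by more in fresh than in frozen IP. The file gives 1 span for the gene, so the 1a and 1c transcripts were not told apart. Relative to the start of that span, RefSeq start 1 of Srebf1 lies at -1977 bases and start 3 at 10133 bases.

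The paralog Srebf2, which encodes SREBP-2, changed far less. In fresh IP, Srebf2 was at 154, 187 and 134 CPM in fed and at 83.5, 127 and 60.6 CPM in fasted libraries A, B and C. In frozen IP it was at 150, 157 and 135 CPM fed and 81.0, 117 and 60.9 CPM fasted. The groups did not overlap in either preparation, and fasted library B was in both the nearest to the fed libraries. How many of all genes separate in this way was not counted. The log2 change was -0.79 in fresh IP (SE 0.34, adjusted p = 0.0596) and -0.77 in frozen IP (SE 0.28, adjusted p = 0.0396), so the fall passed the threshold of 0.05 only in frozen IP. Over the settings tried, the adjusted p ran from 0.0132 to 0.171 in fresh IP and from 0.0085 to 0.128 in frozen IP. The call in frozen IP was lost when fed library A, B or C or fasted library A or C was left out (adjusted p = 0.0596 to 0.128), and the call in fresh IP was gained without fasted library B (adjusted p = 0.0132), by DESeq2 (adjusted p = 0.0138), without a filter on low counts (adjusted p = 0.0472) and with all 18 libraries in 1 fit (adjusted p = 0.016).

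**Figure D1:**
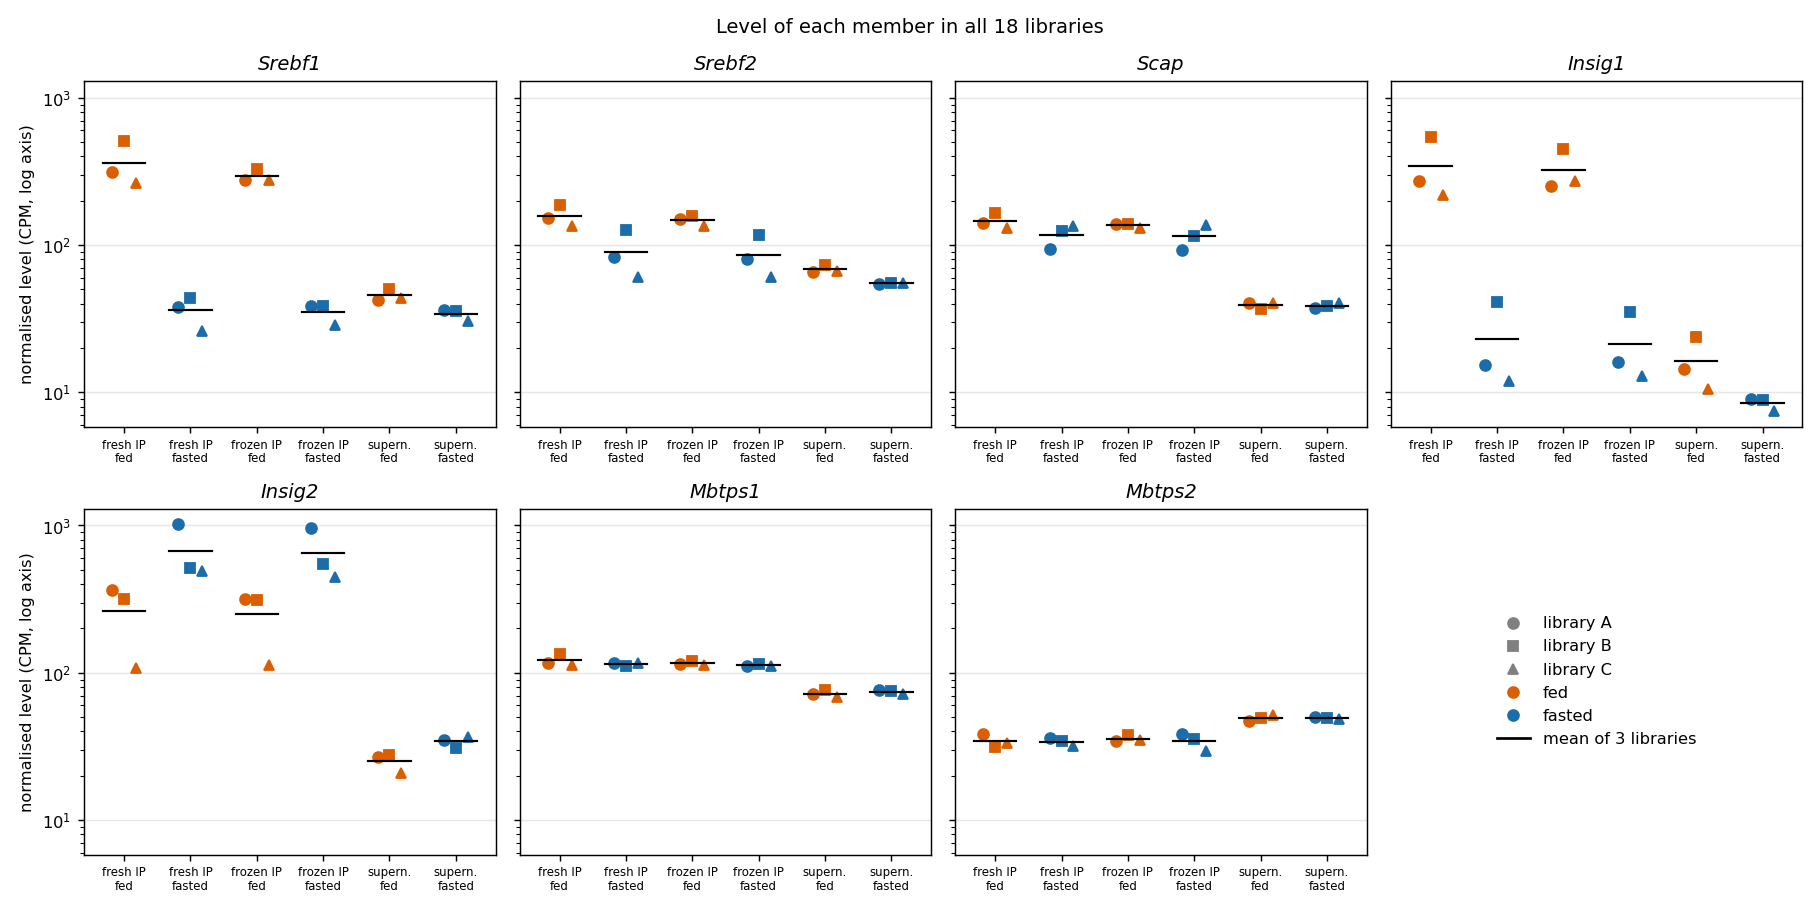
Level of each of the 7 genes in the 18 libraries, in CPM on a log axis; symbols are libraries A to C, orange is fed, blue is fasted and the line is the mean of 3 libraries. Srebf1 and Insig1 drop by about an order of magnitude from fed to fasted in both IP preparations, Insig2 lies higher in fasted than in fed IP, and Mbtps1 and Mbtps2 stay within 111 to 134 and 29.6 to 38.5 CPM in IP.

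Per kb of counted span, the ratio of Srebf1 to Srebf2 within a library needs no scaling between libraries. In fresh IP the ratio was 5.46, 7.34 and 5.27 in fed libraries A, B and C and 1.23, 0.93 and 1.15 in fasted ones. Fed nuclei thus held several times more Srebf1 than Srebf2 signal per kb, and fasted nuclei held about as much of one as of the other per kb. The near-equality depends on the division by span. In CPM, mean Srebf1 and Srebf2 in fresh IP were 363 and 158 in fed and 36.1 and 90.4 in fasted libraries. On the log2 scale the mean ratio went from 2.57 ± 0.26 to 0.13 ± 0.21 (SD, n = 3), a difference of -2.44 (SE 0.19). In frozen IP it went from 2.42 ± 0.10 to 0.17 ± 0.30, a difference of -2.25 (SE 0.18). In supernatant it was 0.83 ± 0.05 fed and 0.73 ± 0.15 fasted, a difference of -0.11 (SE 0.09). The exact two-sided permutation test gave p = 0.1 for each IP, the smallest that 3 against 3 libraries allow, and p = 0.4 for supernatant. Adjusted over the 6 ratio tests made, these were 0.12 and 0.4.

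Scap (NM_001103162, chr9:110333288-110384949, plus strand) encodes the sterol sensor and escort of both SREBPs. In fresh IP, Scap was at 142, 166 and 131 CPM in fed and at 94.6, 124 and 135 CPM in fasted libraries. In frozen IP it was at 138, 140 and 131 CPM fed and 93.0, 116 and 138 CPM fasted. Fasted library C lay among the fed libraries in both preparations, and fasted library A was the lowest in both. The log2 change was -0.29 in fresh IP (SE 0.19, adjusted p = 0.206) and -0.24 in frozen IP (SE 0.17, adjusted p = 0.282), and neither passed the test.

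The INSIG genes went opposite ways in level. Insig1, which is itself a known SREBP target, was at 270, 538 and 220 CPM in fed and at 15.45, 41.42 and 12.005 CPM in fasted libraries of fresh IP. In frozen IP it was at 254, 449 and 273 CPM fed and 16.0, 35.0 and 13.0 CPM fasted. No fasted library came near a fed one, and library B was the highest of its group in both feeding states and both preparations. Insig1 fell by 3.87 on the log2 scale in fresh IP (SE 0.67, adjusted p = 0.00357), or 14.7-fold, and fell by 3.93 in frozen IP (SE 0.51, adjusted p = 0.00131), or 15.3-fold. Without fasted library B the log2 change of Insig1 in fresh IP was -4.62 (adjusted p = 0.00199), or 24.6-fold lower. Srebf1 and Insig1 passed the test in both preparations when any 1 library was left out, with adjusted p of at most 0.0209.

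Insig2 lay higher in fasted than in fed nuclei. Its level in fresh IP was 366, 319 and 108 CPM in fed and 1016, 516 and 488 CPM in fasted libraries A, B and C. In frozen IP it was 319, 314 and 113 CPM fed and 966, 547 and 444 CPM fasted. The groups did not overlap, but they were wide: fed library C was well below its neighbours and fasted library A was well above its neighbours, in both preparations. Here too, the share of all genes without overlap was not counted. The log2 change was 1.38 in fresh IP (SE 0.65, adjusted p = 0.0634) and 1.39 in frozen IP (SE 0.60, adjusted p = 0.0501), and neither passed the threshold of 0.05. DESeq2 called it in both (adjusted p = 0.00595 and 0.00331), as did the fit of all 18 libraries (adjusted p = 0.0326 and 0.0279). With any 1 library left out it was called in neither, with adjusted p from 0.0699 to 0.206 in fresh IP and from 0.0579 to 0.165 in frozen IP. In the authors' deposited table, the log2 change of Insig2 was 1.31 in fresh IP (adjusted p = 0.0133) and 1.32 in frozen IP (adjusted p = 0.0126). The same deposited table gave Srebf2 at -0.86 (adjusted p = 0.0034) and -0.84 (adjusted p = 0.00414).

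**Figure D2:**
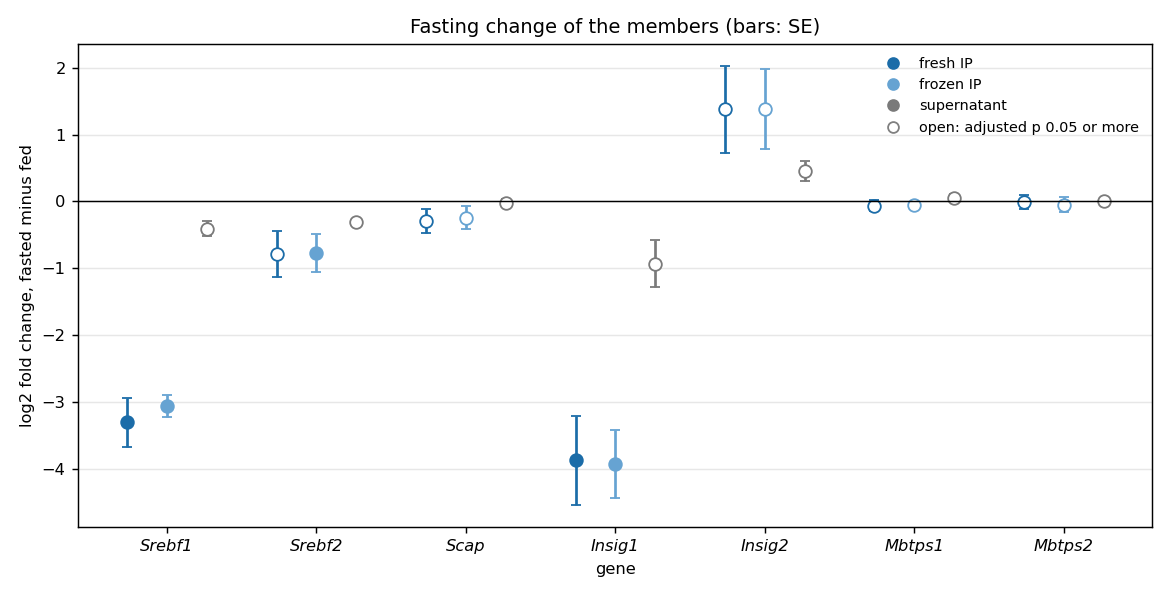
Log2 change from fed to fasted of the 7 genes in fresh IP, frozen IP and supernatant, with the SE as bars (n = 3 per group); filled points had an adjusted p under 0.05. Srebf1 and Insig1 lie between -3.93 and -3.07 in IP, Insig2 stands at 1.38 and 1.39 with open points, and the supernatant points of all 7 genes are open.

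The balance of the INSIG genes shifted toward Insig2 within libraries of fasted mice. Per kb of counted span, the ratio of Insig2 to Insig1 in fresh IP was 0.35, 0.15 and 0.13 in fed libraries A, B and C and 16.9, 3.20 and 10.4 in fasted ones. In frozen IP it was 0.32, 0.18 and 0.11 fed and 15.5, 4.01 and 8.79 fasted. Per kb, Insig1 was thus the higher in every fed IP library and Insig2 in every fasted one. In CPM, not divided by span, the order in fed mouse A was the other way, with Insig2 at 366 and Insig1 at 270 CPM in fresh IP and at 319 and 254 CPM in frozen IP. Insig1 was the higher in CPM in fed mice B and C in both preparations, and Insig2 in all fasted IP libraries, so which gene leads in mouse A depends on the division by span. The mean log2 ratio went from -2.41 ± 0.78 to 3.05 ± 1.23 in fresh IP (SD, n = 3), a difference of 5.45 (SE 0.84), and from -2.45 ± 0.80 to 3.03 ± 0.98 in frozen IP, a difference of 5.48 (SE 0.73). In supernatant the mean log2 ratio was -1.26 ± 0.41 fed and 0.06 ± 0.25 fasted, a difference of 1.32 (SE 0.28). The exact two-sided permutation test gave p = 0.1, the smallest possible, in all 3 preparations (0.12 adjusted over the 6 tests). Dividing by span shifts the log2 ratio by the same amount in every library, so its difference between groups is the same with and without it. The counts do not separate spliced from unspliced RNA, and whether the spliced share of either gene differed between fed and fasted nuclei was not tested.

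**Figure D3:**
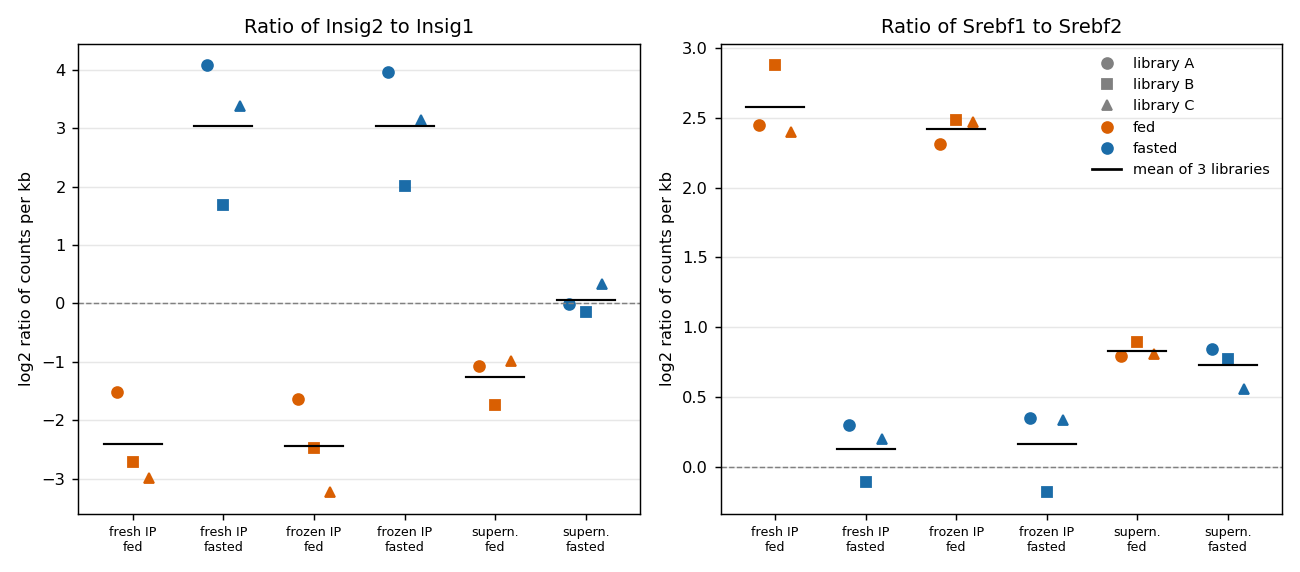
Log2 ratio of Insig2 to Insig1 (left) and of Srebf1 to Srebf2 (right) per kb in each library; symbols are libraries A to C, orange is fed, blue is fasted, lines are means of 3 and the dashed line marks equal levels. The Insig2 to Insig1 ratio is below 0 in all 6 fed IP libraries and above 0 in all 6 fasted ones, and the Srebf1 to Srebf2 ratio falls from 2.31 or more to 0.35 or less in IP.

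The proteases differed least between feeding states. Mbtps1 (NM_001167910, chr8:119508152-119558761, minus strand), which encodes the site-1 protease, was at 117, 134 and 113 CPM in fed and 117, 111 and 116 CPM in fasted libraries of fresh IP. Mbtps2 (NM_172307, chrX:157547822-157598715, minus strand), which encodes the site-2 protease, was at 38.5, 31.5 and 33.6 CPM in fed and 36.0, 34.2 and 31.6 CPM in fasted libraries of fresh IP. Fed and fasted libraries overlapped for both genes. The log2 changes were -0.06 (SE 0.08) and -0.01 (SE 0.10) in fresh IP, and -0.05 (SE 0.03) and -0.05 (SE 0.12) in frozen IP, with adjusted p of 0.695 or more. Yy2 lies inside the Mbtps2 span on the same strand (2867 bases, 5.63% of it) and is not a row of the count table, so reads from it would count toward Mbtps2. An unclassified transcript, Gm49502, likewise lies inside Srebf2 on the same strand (2110 bases, 3.66% of it) and is not a row of the table, and neither are the miRNA genes Mir33 inside Srebf2 and Mir6921 and Mir6922 inside Srebf1. On the opposite strand, Rai1 overlaps Srebf1 by 109 bases, and unclassified transcripts cover 10.8% of the Insig2 span and 6.55% of the Scap span. The strand setting of the counting was not given in the sources used here.

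Of the 7 genes, 2 passed the test in fresh IP, both lower, and 3 in frozen IP, all lower. Over all genes tested, 25.1% passed in fresh IP (12.4% higher and 12.6% lower), and 22.6% passed in frozen IP (11.0% higher and 11.6% lower). In fresh IP, 4 of the 7 had an unadjusted p under 0.05, as did 39.2% of all genes. DESeq2 called 4 of the 7 and 27.1% of the genes it gave an adjusted p, and the fit of all 18 libraries called 4 of the 7 and 29.1% of all genes. Some markers of other cell types also passed between feeding states in IP. Of 8 endothelial genes, 0 passed in fresh IP, and 1 rose and 3 fell in frozen IP. Of the stellate cell and fibroblast genes, 1 of 7 tested fell in fresh and 4 of 8 in frozen IP. Of the Kupffer cell and macrophage genes, 1 of 7 tested rose in fresh and 1 of 8 in frozen IP. No lymphocyte or cholangiocyte marker passed in either. These are at most 14.3% of a list in fresh IP and at most 50% in frozen IP. Of 10 hepatocyte genes, 2 rose and 1 fell in each preparation. The part of other cell types in the changes of the 7 genes was not tested. Fresh and frozen IP came from the same mice, so they repeat the preparation and not the animals.

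In the order of levels per kb, fed fresh IP had Insig1 at 47.3 ± 23.6 CPM per kb (SD, n = 3), Srebf1 at 16.9 ± 6.11, Insig2 at 9.37 ± 4.86, Scap at 2.83 ± 0.36, Srebf2 at 2.75 ± 0.46, Mbtps1 at 2.40 ± 0.22 and Mbtps2 at 0.68 ± 0.07. The ranges over libraries of Srebf1 and Insig2 overlapped, as did those of Scap, Srebf2 and Mbtps1, while Insig1 stood above and Mbtps2 below all others. Fasted fresh IP had Insig2 at 23.9 ± 10.5 CPM per kb, Insig1 at 3.17 ± 2.22, Scap at 2.28 ± 0.41, Mbtps1 at 2.27 ± 0.06, Srebf1 at 1.68 ± 0.43, Srebf2 at 1.57 ± 0.59 and Mbtps2 at 0.67 ± 0.04. There, Insig2 alone stood above and Mbtps2 alone below. The ranges of Insig1, Scap and Mbtps1 overlapped with their neighbours in the order, Mbtps1 lay above Srebf1, and Srebf1 overlapped with Srebf2. Frozen IP had the same order as fresh IP in each feeding state, with Insig1 at 44.8 ± 14.8, Srebf1 at 13.7 ± 1.37 and Insig2 at 8.81 ± 4.17 CPM per kb in fed and Insig2 at 23.1 ± 9.80, Insig1 at 2.94 ± 1.65 and Srebf1 at 1.63 ± 0.26 CPM per kb in fasted liver. The ranges of Srebf1 and Insig2 did not overlap in fed frozen IP. These orders depend on the division by span: in CPM, fed fresh IP had Srebf1 at 363 and Insig1 at 343.

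The order in supernatant was another one, and the levels lay closer together. Fed supernatant had Insig1 at 2.24 ± 0.93 CPM per kb, Srebf1 at 2.12 ± 0.21, Mbtps1 at 1.43 ± 0.08, Srebf2 at 1.19 ± 0.07, Mbtps2 at 0.97 ± 0.05, Insig2 at 0.89 ± 0.13 and Scap at 0.76 ± 0.04. Insig1 overlapped with Srebf1, and Insig2 overlapped with both of its neighbours. Fasted supernatant had Srebf1 at 1.59 ± 0.15 CPM per kb, Mbtps1 at 1.47 ± 0.05, Insig2 at 1.21 ± 0.11, Insig1 at 1.17 ± 0.12, Mbtps2 at 0.97 ± 0.01, Srebf2 at 0.96 ± 0.01 and Scap at 0.75 ± 0.03. Neighbours overlapped for Srebf1 and Mbtps1, for Insig2 and Insig1, and for Mbtps2 and Srebf2. Here too the order depends on the division by span. In CPM, Insig1 had the lowest mean of the 7 in fed supernatant (16.3) and Mbtps1 the highest (72.4).

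The spread between mice also differed by gene. In fresh IP the coefficient of variation was 49.8% fed and 70.0% fasted for Insig1, 51.9% and 44.1% for Insig2, 36.2% and 25.6% for Srebf1, and 9.08% and 2.53% for Mbtps1. Counting error was under 6% throughout, so the spread of the first 3 genes was mostly between libraries. The letters of the highest and the lowest library were the same in fresh and frozen IP in 10 of the 14 pairs of gene and feeding state. These were both feeding states for Srebf2, Scap and Insig2, fed mice for Srebf1 and Mbtps1, and fasted mice for Insig1 and Mbtps2. Letters were taken to pair mice because same-letter libraries deviated together, so this recurrence is no separate support for the pairing. The share over all genes was not counted.

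The supernatant, which holds the nuclei not pulled down, had smaller fasting differences. Srebf1 was at 42.6, 50.7 and 43.5 CPM in fed and 36.5, 35.5 and 30.3 CPM in fasted supernatant, a log2 change of -0.41 (SE 0.11, adjusted p = 0.0709). Insig1 was at 14.5, 23.7 and 10.6 CPM fed and 9.09, 8.82 and 7.46 CPM fasted, a log2 change of -0.93 (SE 0.35, adjusted p = 0.0871). Insig2 was at 26.8, 27.7 and 20.9 CPM fed and 35.2, 30.9 and 36.8 CPM fasted, a log2 change of 0.46 (SE 0.15, adjusted p = 0.0713). Srebf2 was at 65.8 to 73.3 CPM fed and 54.4 to 55.7 CPM fasted, a log2 change of -0.31 (SE 0.05, adjusted p = 0.0561). None of these changes passed the threshold, and the sign of each was the one it had in IP.

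In supernatant, 0 of the 7 passed edgeR's test, against 6.22% of all genes (3.38% higher and 2.84% lower). An unadjusted p under 0.05 was found for 4 of the 7 and for 23.1% of all genes. DESeq2 called 4 of the 7 and 13.1% of the genes it gave an adjusted p; the members were the same under both rules (adjusted p = 0.0168 for Srebf1, 0.00568 for Srebf2, 0.0106 for Insig1 and 0.0204 for Insig2). Hepatocyte marker sums in supernatant were 534 to 936 CPM in fed and 868 to 1404 CPM in fasted libraries. The part that residual hepatocyte nuclei had in the supernatant values was not tested. In bulk RNA, fewer cells of a type and less RNA per cell cannot be told apart.

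The fasting response was tested directly between IP and supernatant. The response of Srebf1 was 2.95 lower in IP on the log2 scale (log2 difference -2.95, SE 0.38, adjusted p = 0.000948), and that of Insig1 was 2.98 lower (log2 difference -2.98, SE 0.75, adjusted p = 0.0189). The difference for Insig1 missed the threshold without fasted IP library A (log2 difference -2.75, adjusted p = 0.0517) and was -3.76 without fasted IP library B (adjusted p = 0.00267), and that for Srebf2 (-0.53, SE 0.34, adjusted p = 0.325) passed it without fasted IP library B (-0.88, adjusted p = 0.028). For Insig2 the difference was 0.86 (SE 0.67, adjusted p = 0.337) and for Scap it was -0.33 (SE 0.19, adjusted p = 0.284). In all, 2 of 7 passed, both lower, against 9.54% of all genes (3.71% higher and 5.83% lower).

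IP and supernatant from the same fresh livers were compared in each feeding state. In fed liver, Insig1 was 20.8-fold higher in IP (log2 difference 4.38, SE 0.52), Insig2 was 10.4-fold higher (3.38, SE 0.57), Srebf1 was 7.87-fold higher (2.98, SE 0.30) and Scap was 3.67-fold higher (1.88, SE 0.11). Srebf2 (1.19, SE 0.15) and Mbtps1 (0.73, SE 0.09) were higher by less, and Mbtps2 was lower in IP (-0.53, SE 0.10, adjusted p = 0.00297). All 7 passed, 6 higher and 1 lower, against 76.4% of all genes (37.7% higher and 38.7% lower), so a pass is the usual outcome in this comparison. Mbtps2 was at 47.0, 49.2 and 52.1 CPM in fed supernatant, above every IP library.

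In fasted liver Srebf1 no longer differed detectably between the fractions: it was at 38.2, 44.1 and 26.0 CPM in IP and 36.5, 35.5 and 30.3 CPM in supernatant (log2 difference 0.03, SE 0.24, adjusted p = 0.904). Insig2 was 18.9-fold higher in IP (log2 difference 4.24, SE 0.35, adjusted p = 1.25e-05), the largest difference among the 7. Insig1 was 2.65-fold higher (1.40, SE 0.55, adjusted p = 0.0254), and this missed the threshold without fasted supernatant library C (adjusted p = 0.0574). Without fasted IP library B, the highest of its group, Insig1 was 1.55-fold higher (0.63, adjusted p = 0.0151). Srebf2 was higher by 0.67 (SE 0.31, adjusted p = 0.049), and with the mouse as a block the difference was 0.59 (adjusted p = 0.0599). It also missed the threshold with RLE scaling (adjusted p = 0.0685), and without fasted IP library A or B or fasted supernatant library A, B or C (adjusted p = 0.0696 to 0.105). Scap (1.54, SE 0.16) and Mbtps1 (0.56, SE 0.04) were higher and Mbtps2 (-0.60, SE 0.06) lower. In all, 6 of 7 passed, 5 higher and 1 lower, against 80.5% of all genes (40.1% higher and 40.4% lower).

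**Figure D4:**
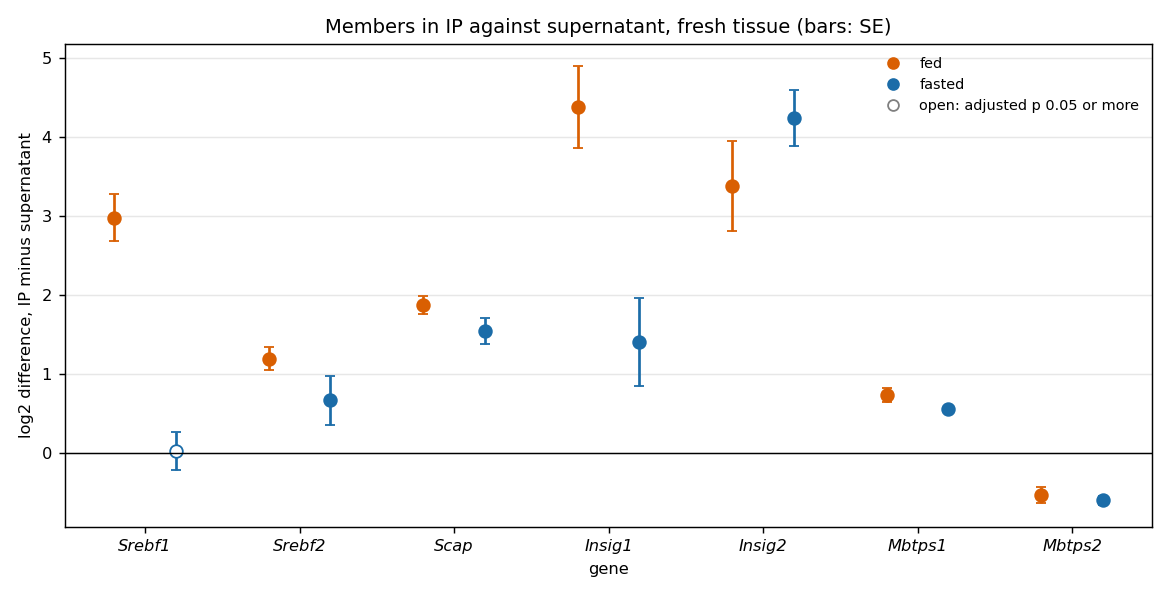
Log2 difference between IP and supernatant of fresh liver for the 7 genes in fed (orange) and fasted (blue) mice, with the SE (n = 3 per group); filled points had an adjusted p under 0.05. Srebf1 goes from 2.98 in fed to 0.03 in fasted mice and Insig1 from 4.38 to 1.40, while Scap goes from 1.88 to 1.54 and Mbtps2 from -0.53 to -0.60.

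Given as a share of the IP level, supernatant Insig1 was at 4.74% in fed liver and 36.8% in fasted liver, and Srebf1 was at 12.6% and 94.6%. The fasted share of Insig1 was 58.8% in mouse A, 21.3% in mouse B and 62.2% in mouse C, and without mouse B it was 60.3%. Insig2 was at 9.50% and 5.09%, beside 3.88% and 4.86% for the summed hepatocyte markers. Scap was at 27.0% and 32.9%, Srebf2 at 43.3% and 61.0%, Mbtps1 at 59.6% and 65.0%, and Mbtps2 at 143% and 146%. In fed liver the INSIG genes thus had the lowest of these shares and the proteases the highest.

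Freezing the liver before the pull-down left the 7 genes close to their fresh levels. Averaged over feeding states, the log2 difference of frozen minus fresh IP was -0.15 for Srebf1 (SE 0.20), -0.07 for Insig1 (SE 0.42), -0.06 for Srebf2 (SE 0.22), -0.04 for Scap (SE 0.12), -0.04 for Insig2 (SE 0.44), -0.03 for Mbtps1 (SE 0.04) and 0.06 for Mbtps2 (SE 0.08). Of the 7, 0 passed edgeR's test, 0 had an unadjusted p under 0.05 and 0 were called by DESeq2, against 5.16% (4.72% higher and 0.441% lower), 12.8% and 6.71% of all genes by these 3 rules. Markers of other cell types were higher in frozen IP: 7 of 8 endothelial genes passed, all higher (median log2 difference 1.26), as did 6 of 8 Kupffer cell and macrophage genes (2.01), 3 of the 6 lymphocyte genes tested (1.51) and 2 of 8 stellate cell and fibroblast genes (0.24). Endothelial sums were 31.8 to 116 CPM in fresh and 99.8 to 239 CPM in frozen IP, and 0 of 10 hepatocyte genes passed. Their part in the levels of the 7 genes was not tested. With the mouse as a block the number of genes called rose from 679 to 2395 (18.2% of all) and the share of them that were higher in frozen IP went from 91.5% to 54.7%, with 0 of the 7 among them. The fasting response did not differ detectably between frozen and fresh IP for any of the 7 (log2 differences from -0.06 to 0.24). Across all genes 0% passed that test by edgeR and 0 by DESeq2, and 43 (0.327%) had an unadjusted p under 0.05. The test treats fresh and frozen libraries of a mouse as independent, though same-letter ones deviated together (r 0.555 to 0.902). A missed threshold therefore does not show that the responses were equal. With the mouse as a block, 0 genes passed as well.

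Genes downstream of and around the machinery were counted from 6 lists. The lists were written with results of these data known, so their counts describe them and support no direction independently. Of 24 targets of the cholesterol branch, 21 fell and none rose in fresh IP, and the same numbers fell and rose in frozen IP, with a median log2 change of -2.54 and -2.51 (all genes 0.01 in both). Large falls among them were those of Mvd, which makes isopentenyl diphosphate (-4.43, SE 0.49), Fdps, the farnesyl diphosphate synthase (-4.14, SE 0.56), and Fdft1, the squalene synthase (-3.41, SE 0.60), each with an adjusted p of at most 0.00359 in fresh IP. Without fasted library B the log2 change was -4.87 for Fdps and -4.22 for Fdft1. In supernatant 10 of the 24 fell, with a median of -0.65. The share of the list that passed was 87.5% in both IP preparations and 41.7% in supernatant. Of all genes tested, 25.1% passed in fresh IP, 22.6% in frozen IP and 6.22% in supernatant. The genes of the list that did not pass in IP were Hsd17b7, Ebp and Ggps1, named after their values were seen.

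Of 16 targets of the fatty acid branch, 10 fell and 1 rose in fresh IP, and 9 fell and 1 rose in frozen IP (medians -1.07 and -1.05). Pnpla3, a lipid droplet protein, fell by 6.94 (SE 1.03), Thrsp, a regulator of lipogenesis, by 6.20 (SE 0.98), Scd1, the stearoyl-CoA desaturase, by 4.83 (SE 1.03) and Fasn, the fatty acid synthase, by 3.70 (SE 0.74) on the log2 scale in fresh IP, with adjusted p of at most 0.00679. Without fed library B the falls were smaller for Pnpla3 (log2 change -5.92) and Scd1 (-3.69), both still called. Lpin1, a phosphatidate phosphatase that is also known as a fasting-responsive gene, was the 1 that rose (log2 change 2.47, adjusted p = 0.014). In supernatant 1 of the 16 passed, Lpin1, which was higher (0.67, adjusted p = 0.0248). The share of the list that passed was 68.8% in fresh and 62.5% in frozen IP, against 25.1% and 22.6% of all genes. In supernatant it was 6.25%, near the 6.22% of all genes.

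Of 19 genes of sterol-regulated ER degradation and its partners, 4 rose and 3 fell in fresh IP and 3 rose and 2 fell in frozen IP, with medians of 0.06 and 0.07. These are 36.8% and 26.3% of the list, against 25.1% and 22.6% of all genes. Paqr3, a Golgi protein that binds SCAP and SREBP, rose by 1.18 (SE 0.34, adjusted p = 0.0158), and Nploc4, a cofactor of the p97 segregase, rose by 0.56 (SE 0.08, adjusted p = 0.0115). Npc2, which moves cholesterol out of lysosomes, fell by 0.65 (SE 0.11, adjusted p = 0.0163), and Soat2, a cholesterol esterifying enzyme, fell by 0.64 (SE 0.16, adjusted p = 0.0185). Paqr3, Nploc4, Npc2 and Soat2 each lost the call in both preparations under at least 1 alternative. In frozen IP the adjusted p reached 0.117 for Npc2, whose call was lost in 5 of 6 leave-one-out fits, and 0.133 for Soat2. Rnf139 and Rnf145, ligase genes that act with INSIG, did not pass: the log2 change in fresh IP was 0.37 for Rnf139 (adjusted p = 0.0729) and 0.38 for Rnf145 (adjusted p = 0.175). They are named for that role after their values were seen.

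Of 11 COPII coat genes, Sec13 (0.90, SE 0.07) and Sec23a (0.77, SE 0.10) rose in fresh IP and again in frozen IP (0.91 and 0.74), and the other 9 did not pass in either. This is 18.2% of the list, below the 25.1% and 22.6% of all genes that passed in fresh and frozen IP. Of 8 other substrates of the site-1 and site-2 proteases, 7 passed the filter on low counts in IP. Among these Creb3l3, which encodes CREBH, a hepatic transcription factor, rose by 1.19 (SE 0.18, adjusted p = 0.00291) and Creb3l2 fell by 1.21 (SE 0.29, adjusted p = 0.00811), and 1 more, Gnptab, fell in fresh IP (-0.54, adjusted p = 0.0298) but missed the threshold in frozen IP (adjusted p = 0.0525). Creb3l3 was also higher in fasted supernatant (1.08, adjusted p = 0.024). Of the 7 substrates tested in IP, 42.9% passed in fresh and 28.6% in frozen IP, against 25.1% and 22.6% of all genes. In supernatant 12.5% of the 8 passed, against 6.22% of all genes.

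Of 14 genes known to act on Srebf1 transcription, 3 rose and 1 fell in both IP preparations. This is 28.6% of the list, near the 25.1% and 22.6% of all genes that passed in fresh and frozen IP. Mlxipl, which encodes the glucose-responsive factor ChREBP, fell by 1.48 (SE 0.08, adjusted p = 0.000963). Foxo1, a factor that insulin signalling holds out of the nucleus, rose by 1.41 (SE 0.30, adjusted p = 0.0079), Irs2, an insulin receptor substrate, by 1.37 (SE 0.49, adjusted p = 0.026) and Mtor, a nutrient-responsive kinase, by 0.81 (SE 0.13, adjusted p = 0.00636). The call of Irs2 was lost under 1 alternative in each preparation (adjusted p = 0.091 in fresh and 0.0509 in frozen IP). Nr1h3, which encodes the sterol receptor LXR alpha, was at -0.04 (adjusted p = 0.809) in fresh IP. In supernatant 2 of the 14 rose and 1 fell, which is 21.4% of the list, against 6.22% of all genes.

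**Figure D5:**
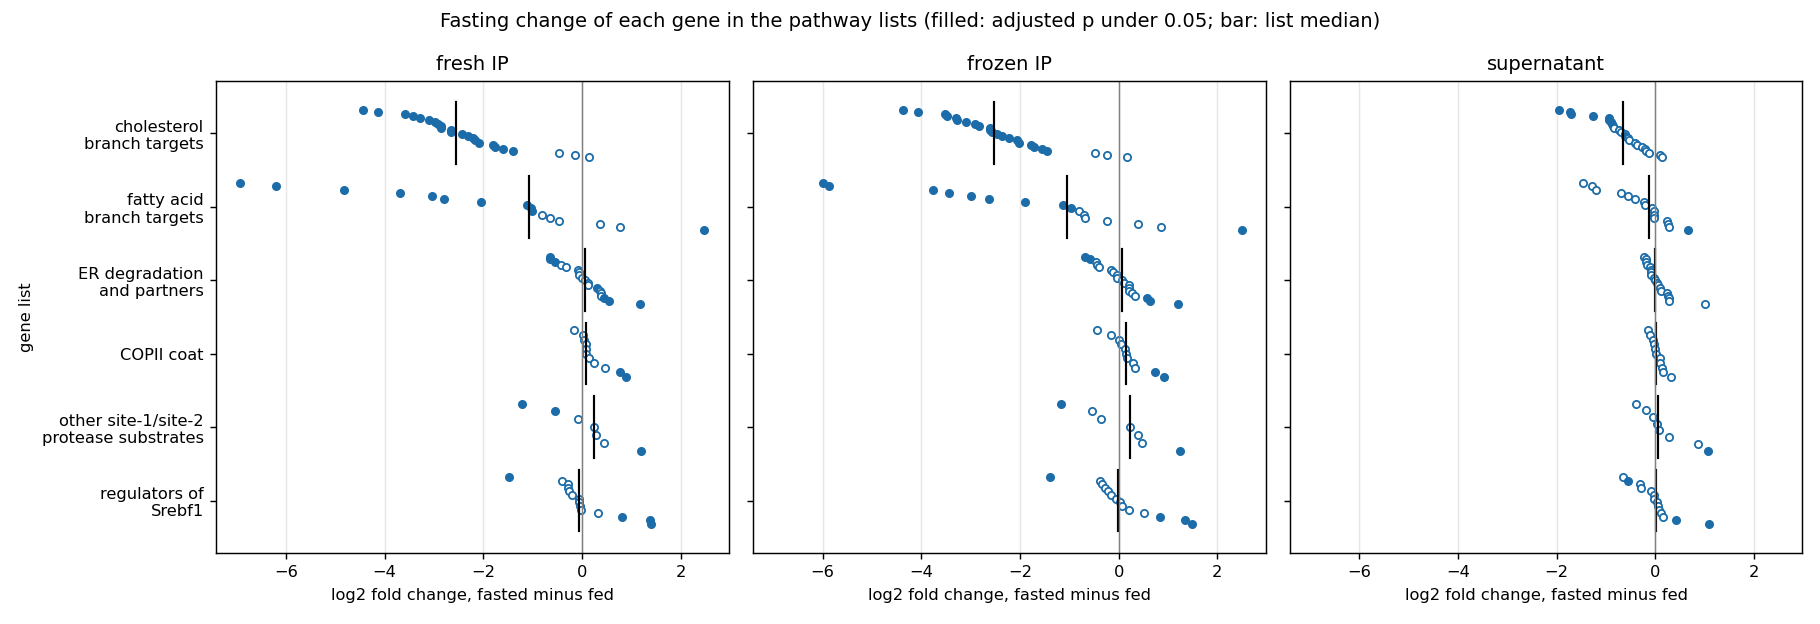
Log2 change from fed to fasted of each gene in the 6 lists, in fresh IP, frozen IP and supernatant; filled points had an adjusted p under 0.05 and the bar is the list median. The medians of the cholesterol and fatty acid lists in fresh IP lie at -2.54 and -1.07, and those of the other 4 lists lie between -0.06 and 0.25.

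Over the 12 IP libraries, levels of the 7 genes moved together to different degrees. Pearson's r of log2 CPM was 0.98 for Srebf1 and Insig1, 0.93 for Srebf2 and Insig1, 0.88 for Srebf1 and Srebf2, -0.70 for Insig1 and Insig2, and -0.69 for Srebf1 and Insig2. These values are descriptions: the libraries share 6 mice and fall into 2 feeding states, which alone gives an r to genes that differ between them. Among 11314 genes at 1 CPM or more, those most like Srebf1 were Tmem14a (r = 0.996), Mmab (r = 0.996) and Lss (r = 0.995), and those most like Insig1 were Kank1 (r = 0.996), Mid1ip1 (r = 0.996) and Enpep (r = 0.995). For Insig2 they were Hsf5 (r = 0.989), Mat1a (r = 0.988) and Uqcrb (r = 0.984), and for Srebf2 they were Zfp937 (r = 0.980), Dhrs3 (r = 0.977) and Car1 (r = 0.977). Scap was most like Agfg2 (r = 0.966), Ptch1 (r = 0.960) and Gm4788 (r = 0.947). The proteases had weaker partners, with r of at most 0.935 for Mbtps1 (Spryd4, then Hebp1 and Slc29a3) and at most 0.857 for Mbtps2 (Zfp595, then Riok2 and Zfyve9).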

How the data were processed

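Per the labels' protocols, nuclear total RNA went into a stranded library kit, poly-A selection was skipped, and reads were paired. The submitters' processing notes name STAR 2.4.2a, DESeq2 1.24.0 and, as build, mm10, without roles, and the counting tool is not given in the sources used here. The authors deposited raw counts per gene, not normalized, with a gene length that equals end minus start in all 20105 genes. The authors' own deposited table gives a log2 fold change and an adjusted p-value per gene and was used only where named. A further 6 columns of per-sample values match no sample and were not used.

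The 7 genes, the lists and the tests were chosen with earlier results of these data known. Each comparison used edgeR 4.0.16 (glmQLFit, glmQLFTest; R 4.3.3) on the counts of its own groups, with TMM scaling, filterByExpr and Benjamini-Hochberg adjustment over all genes tested, threshold 0.05. The SE comes from the SDs of log2 CPM (prior count 2) in each group and treats libraries as independent. Ratios used exact permutation tests. Scripts were tested on simulated counts. Of each list, up to 4 genes are named, those with the largest log2 change in fresh IP that passed alike in fresh and frozen IP (1 gene that the rule names is not reported here); for likeness, the 3 genes with the highest r are named. Alternatives were DESeq2 1.42.0, RLE factors, no filter, all 18 libraries in 1 fit, each library left out, and the mouse as a replicate block. Columns carry only a group and a letter; same-letter libraries deviated together (r 0.152 to 0.902; other letters -0.586 to 0.0101), so letters were taken to pair mice. No 2 libraries of a group agreed within sampling noise (chi-square of at least 16.1 per gene). Upstream windows came from RefSeq (GRCm38.p6), and overlapping genes from GENCODE on the same build.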

Additional observations from a re-analysis of the deposited data

Results flagged for a closer look

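The fasting response of Srebf1 differed between fractions, with a log2 difference of IP minus supernatant of -2.95 (adjusted p = 0.000948, edgeR's quasi-likelihood test of the interaction). That of Insig1 differed by -2.98 (adjusted p = 0.0189). Every IP and supernatant library of fasted mice was below every fed one of its fraction for both genes. The share of all genes with such a separation was not counted, so it is a description only. Within supernatant alone, edgeR's test called neither gene (adjusted p = 0.0709 for Srebf1 and 0.0871 for Insig1). Hepatocyte marker sums in supernatant were 3.88% of those in IP in fed and 4.86% in fasted liver, and their part in the supernatant response was not tested.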

How the results depend on the processing

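Of 227 values of the 7 genes called in the main design and computed again under the alternatives, 213 kept their direction and their call, 14 lost the call and 0 reversed. The losses were those of Srebf2 in frozen IP and between fasted fractions and of Insig1 between fasted fractions and in the response of IP minus supernatant. Of 40 calls of list genes in fresh or frozen IP, 10 were lost under at least 1 alternative. These were the calls of Paqr3, Npc2, Soat2, Nploc4 and Irs2 in both preparations. In fresh IP 4 of the 7 genes were called by DESeq2 and 4 with all 18 libraries in 1 fit; in supernatant DESeq2 called 4 of the 7 and 1871 genes in all. For the response of IP minus supernatant DESeq2 called 2307 genes. In the comparisons of fractions, the median log2 difference of all genes was 0.0076 (fed) and 0.0183 (fasted) in the main design. By DESeq2 it was -0.128 and -0.178, but over more genes, as DESeq2 was run without the filter on low counts. These were 16770 and 16916 genes, against 13881 and 14000. Without that filter, edgeR gave -0.0793 and -0.0873 over as many genes.

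With the mouse as a replicate block, 2395 genes differed between frozen and fresh IP. The block ended the call of Srebf2 between fasted fractions (0.59, adjusted p = 0.0599) and changed no other call of the 7 genes. Values near 0 that were not called changed sign: Srebf1 between fasted fractions was -0.0545 by DESeq2, -0.0601 with RLE factors and -0.00717 with the block, Mbtps2 in supernatant was -0.000841 by DESeq2, and, in the response of frozen minus fresh IP without a filter, Srebf2 was -0.00762, Insig2 was -0.0109 (-0.0119 with the block) and Mbtps1 was -0.00843.

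Leaving out 1 library in turn gave 1429 to 2643 genes called in fresh IP, 1168 to 2271 in frozen IP, 197 to 624 in supernatant, 409 to 711 between frozen and fresh IP and 771 to 1485 (1 to 3 of the 7) for the response of IP minus supernatant. The lowest of these counts came without fasted library A of the IP or supernatant concerned (of the supernatant for the response), and without fed library A of fresh IP for frozen minus fresh IP. Each leaves fewer libraries to estimate the spread from. Uncalled values crossed 0. In fresh IP, Mbtps1 ran from -0.109 to 0.0113 and Mbtps2 from -0.0687 to 0.0695; Mbtps2 ran from -0.132 to 0.0499 in frozen IP and from -0.0333 to 0.0579 in supernatant, where Scap ran from -0.0701 to 0.0185; and Srebf1 ran from -0.15 to 0.24 between fasted fractions. For frozen minus fresh IP the ranges were -0.244 to 0.0173 (Srebf1), -0.204 to 0.0968 (Srebf2), -0.113 to 0.0239 (Scap), -0.35 to 0.30 (Insig1), -0.24 to 0.17 (Insig2) and -0.0473 to 0.00994 (Mbtps1). For the response of IP minus supernatant Mbtps2 ran from -0.133 to 0.0104. For the response of frozen minus fresh IP they were -0.0948 to 0.413 (Srebf1), -0.27 to 0.34 (Srebf2), -0.0931 to 0.180 (Scap), -0.61 to 0.68 (Insig1), -0.39 to 0.44 (Insig2), -0.0629 to 0.0514 (Mbtps1) and -0.134 to 0.0581 (Mbtps2).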
